A study of Homo sapiens with 6 samples.

Results

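The genes described here encode the machinery that attaches ubiquitin to proteins, removes it and degrades the tagged proteins. They are the protein-coding genes of the deposited table whose symbol begins with PSMA to PSMG, UBE2, OTUD, UCHL or JOSD, or with USP or UBA followed by a digit. This rule found 95 of the 7983 listed genes, among 7016 that are protein-coding. By function, 36 encode the proteasome with its activators and assembly chaperones, 28 encode activating (E1) and conjugating (E2) enzymes, and 29 encode deubiquitinating enzymes. The other two, PSMC3IP among them, share the name pattern but none of the 3 functions. The rule used names alone and no measured value, but the members were chosen with earlier results of these data known.

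RNA was sequenced from Kasumi-1, a human acute myeloid leukaemia line with the translocation that fuses RUNX1 to RUNX1T1. The SETD8 knockout group (genotype label SETD8 knockout, guide label sgSETD8) had 3 libraries. The control group (genotype label WT, non-targeting guide label sgNT) had 3 libraries. SETD8, whose current symbol is KMT5A, is the enzyme that adds a single methyl group to a lysine of the histone H4 tail. The labels give neither the target site of any guide, the time after editing, nor whether the edited cells were a clone or a pool. Libraries of a group are numbered 1 to 3, and whether the numbers stand for separate guides or separate cultures is not stated. The p-values below therefore measure sample-to-sample spread in this set, and this spread may be technical. In bulk RNA, fewer cells of a type and less RNA per cell cannot be told apart.

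Ubiquitin is passed from an E1 to an E2 and then, with an E3 ligase, to a substrate, and deubiquitinating enzymes cut it off again. Chains of ubiquitin direct many proteins to the 26S proteasome, in which the 20S core, a barrel of alpha and beta rings, holds the proteases and the 19S cap recognises, unfolds and feeds in the substrate. Drugs that block the core's beta subunits are used against plasma cell cancers.

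The authors' deposited table lists genes that differ between the groups, with unadjusted p-values up to 0.049998, and other genes of these families are not analysed here. Reads in the listed genes ran from 10966349 to 12557974 per library. KMT5A had 879.7, 933 and 939 normalized reads in the SETD8 knockout libraries, against 1191, 1212 and 1255 in the control libraries (log2 fold change -0.41, SE 0.07, limma-trend adjusted p = 5.65e-05), and a frameshift need not remove the transcript. All 8 markers fixed for Kasumi-1 were listed, of which 4 rose, 2 fell and 2 were not called. Their sum ran from 62980 to 65049 normalized reads in the knockout and from 85998 to 89051 in the control. The lower sum came from the 2 that fell, KIT (mean 43551 in the knockout and 60704 in the control) and MPO (1541 and 12254.5). The other Kasumi-1 markers all had positive log2 fold changes. Of markers of other cells, 2 of 4 for T cells (CD3D and CD4), 2 of 3 for B cells (CD79A among them) and 1 of 3 for epithelium (EPCAM) were listed, with 0 of 4 erythroid and 0 of 3 fibroblast markers. Summed T cell markers ran from 5195 to 5313 normalized reads in the knockout and from 2715 to 2952 in the control. CD79A ran from 162 to 204 in the knockout and from 112 to 126 in the control, and EPCAM from 1857 to 2044 in the knockout and from 1277 to 1432 in the control. Their part in the results below was not tested.

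All values are the authors' normalized read counts, and a log2 fold change is knockout over control on log2(value + 1). A gene was called when its Benjamini-Hochberg adjusted p in limma-trend, a linear model fitted over all tested genes, was below 0.05. All 95 members passed the filter of a mean of at least 10, as did 7516 genes in all. Among those 7516 genes 94.1% were called, 47.3% higher and 46.7% lower in the knockout, as the table was already selected, so a call alone sets no member apart and direction carries most of what can be read. A log2 change of 1 or more either way was found in 19.5% of tested genes and in 3 members, UBE2V1, USP53 and USP27X. The median log2 fold change over all tested genes was 0.14, and 50.4% had a positive one. Of the members, 40 share exon bases with another gene, on the same strand for PSMA1, PSMB10, PSME2, UBA7, UBE2V1, USP15 and USP31, and the sources used here do not give how such reads were assigned. Direction also ran in blocks along chromosomes. For each gene the median of the other tested genes that start within 5 Mb is called its neighbour median below, and it is given where it bears on a member. Where it was subtracted it was treated as a fixed number. Calls and adjusted p-values after subtraction therefore leave out the error of the median itself.

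Of the 36 proteasome genes 31 rose and 3 fell in the SETD8 knockout, while PSMC1 and PSMD12 did not pass the test. Their median log2 fold change was 0.34, and 32 of 36, or 88.9%, had a positive one. Values of the groups did not overlap for 34 of 36, against 95.4% of all tested genes, and 32 of the 36 lay wholly above the control, against 48.0% of tested genes, and 2 wholly below, against 47.4%. Summed over the 36 genes, the level was 79842 ± 4025 normalized reads in the knockout and 63532 ± 1263 in the control (SD, n = 3 each). That sum was 0.665% of the reads in listed genes in the knockout and 0.559% in the control. Genes with a mean of at least 500, a range that holds most of the proteasome genes, had a median of 0.19, and 54.2% of them had a positive change.

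**Figure D1:**
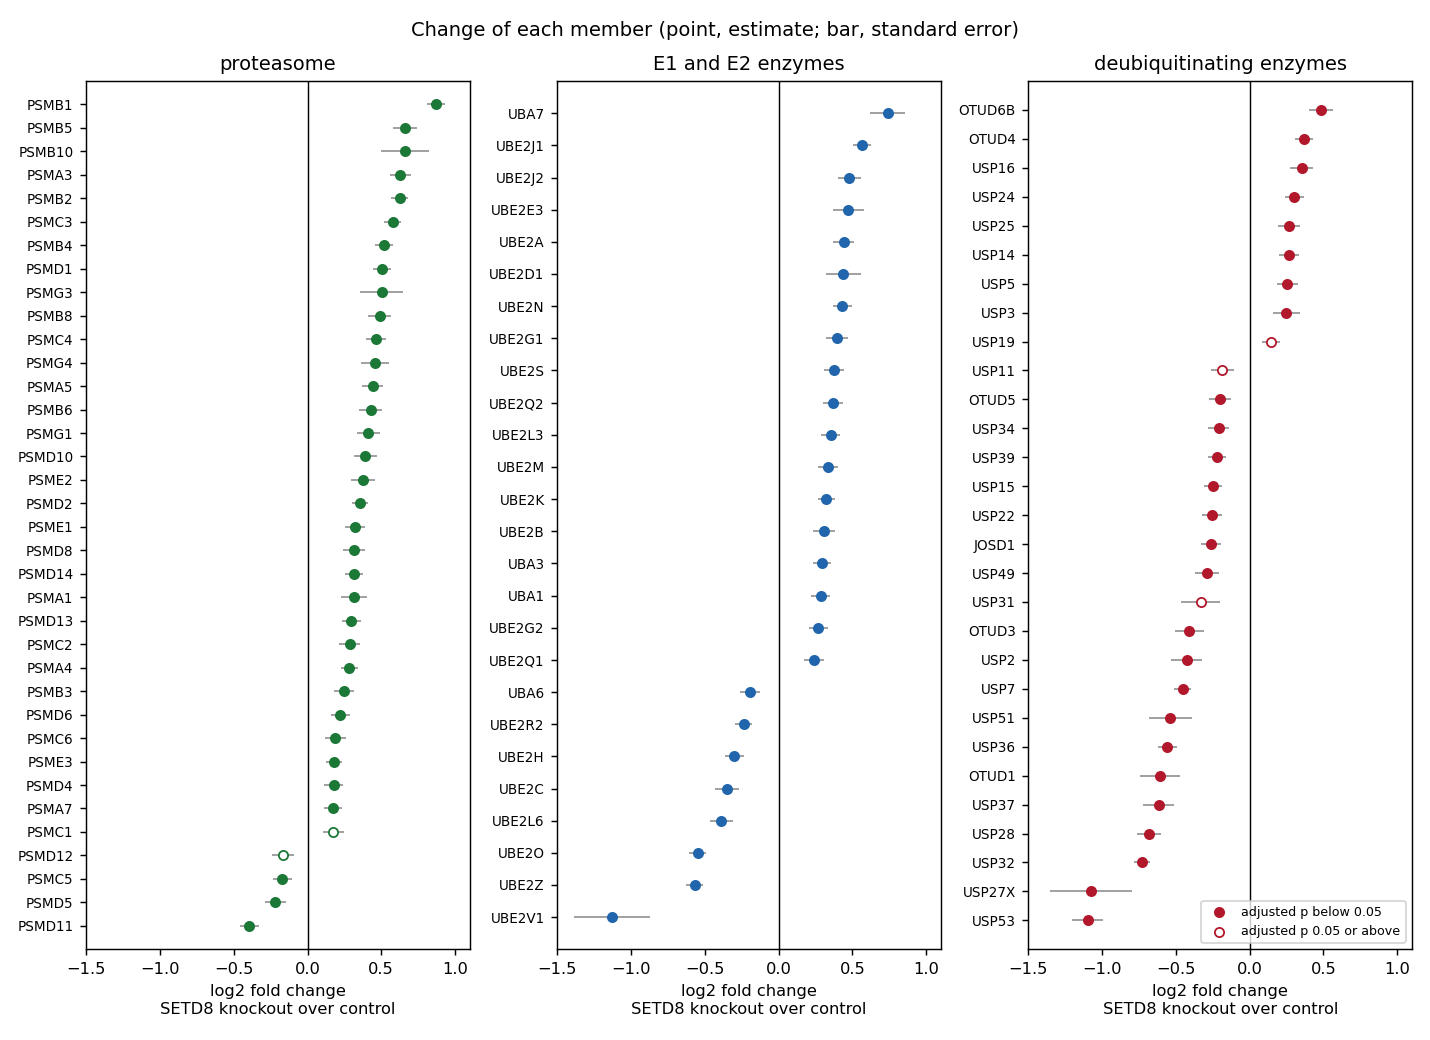
Log2 fold change (SETD8 knockout over control) with its standard error for the members (26 of the 28 E1 and E2 genes are drawn), one panel per function, filled where the limma-trend adjusted p was below 0.05. Proteasome genes lie mostly right of 0 (31 of 36 rose), the E1 and E2 genes drawn divide into 18 that rose and 8 that fell, and deubiquitinating enzyme genes lie mostly left of 0 (18 of 29 fell).

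All 11 listed genes of the constitutive 20S core rose, 5 of the 8 alpha and 6 of the 7 beta subunit genes that exist. Their median log2 fold change was 0.44, with 0.31 for alpha and 0.57 for beta subunits. Alpha subunits form the outer rings that gate the channel, and beta subunits form the inner rings, 3 kinds of which carry the protease sites. PSMB1, a beta subunit without a protease site (chr6:170535117-170553341, minus strand, hg38), had 5364, 5182 and 4479.5 normalized reads in the SETD8 knockout libraries, against 2635, 2792 and 2766 in the control libraries. Every knockout library stood above every control library by a wide margin, a 1.83-fold difference (log2 fold change 0.87, SE 0.064, limma-trend adjusted p = 2.68e-10), the largest of any proteasome gene listed. PSMB5, the subunit with the chymotrypsin-like site that bortezomib binds (chr14:23016543-23035230, minus strand), had 1931, 1974 and 1607 normalized reads in the SETD8 knockout libraries, against 1152, 1066 and 1258 in the control libraries (log2 fold change 0.66, SE 0.08, limma-trend adjusted p = 5.40e-07). PSMB2, a structural beta subunit (chr1:35599544-35641844, minus strand), had 3461, 3341 and 3207 normalized reads in the SETD8 knockout libraries, against 2101, 2234 and 2150.4 in the control libraries (log2 fold change 0.63, SE 0.058, limma-trend adjusted p = 1.03e-08). In both genes the lowest knockout library exceeded the highest control library.

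Among alpha subunits, PSMA3 (chr14:58244831-58272012, plus strand) had 1877, 1849 and 1702 normalized reads in the SETD8 knockout libraries, against 1230.4, 1068 and 1219.9 in the control libraries (log2 fold change 0.63, SE 0.071, limma-trend adjusted p = 2.19e-07). PSMA5 had 2124, 1773 and 1908 normalized reads in the SETD8 knockout libraries, against 1447, 1416 and 1400.2 in the control libraries (log2 fold change 0.44, SE 0.069, limma-trend adjusted p = 1.77e-05). PSMA1 had 745, 832 and 708 normalized reads in the SETD8 knockout libraries, against 570.2, 657 and 610.4 in the control libraries (log2 fold change 0.31, SE 0.089, limma-trend adjusted p = 0.00729), and its lowest knockout library lay closer to the control libraries than in PSMA3. The other core genes rose by log2 0.18 for PSMA7, 0.24 for PSMB3, 0.28 for PSMA4, 0.43 for PSMB6, which carries the caspase-like site, and 0.52 for PSMB4. The calls of 3 of these genes were lost in fits with 1 library left out. PSMA1 had an adjusted p of 0.0727 in limma-trend without knockout 2 (log2 0.25), and PSMB3 one of 0.0522 without control 3 (log2 0.21). PSMA7 lost its call without knockout 1, knockout 2, control 1 or control 2, at log2 0.12 to 0.19. Summed over the 11 genes the core stood at 30246 ± 1956 normalized reads in the knockout and 21686 ± 283 in the control.

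Both listed genes for immunoproteasome subunits, which replace their constitutive counterparts in blood cells and after interferon, rose. PSMB8, the counterpart of PSMB5 (chr6:32840717-32844703, minus strand), had 1489, 1299 and 1263 normalized reads in the SETD8 knockout libraries, against 891, 984 and 1004 in the control libraries (log2 fold change 0.49, SE 0.077, limma-trend adjusted p = 1.99e-05). PSMB10, which replaces the trypsin-like subunit (chr16:67934502-67937087, minus strand), had 233, 197 and 232 normalized reads in the SETD8 knockout libraries, against 112, 152 and 157 in the control libraries (log2 fold change 0.66, SE 0.16, limma-trend adjusted p = 0.00207). The groups did not overlap in either gene. Per kilobase of the deposited gene length, PSMB8 stood at 451 ± 40.6 reads per kilobase in the knockout and 320.2 ± 20.1 in the control, and its constitutive counterpart PSMB5 at 1041 ± 114 reads per kilobase in the knockout and 656 ± 54.5 in the control. PSMB10 stood at 119 ± 11.2 reads per kilobase in the knockout and 75.7 ± 13.1 in the control, among the lowest levels of the proteasome genes. PSMB1 had the highest level per kilobase of the 36 in the knockout, at 2220.1 ± 207 reads per kilobase in the knockout and 1211 ± 37.2 in the control.

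**Figure D2:**
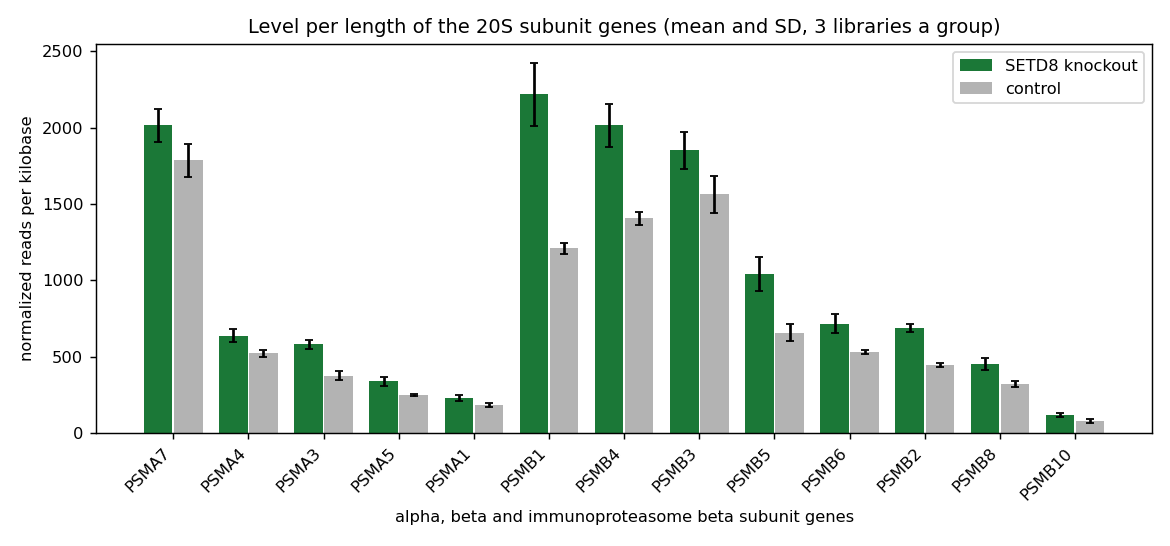
Normalized reads per kilobase of gene length (mean and SD, n = 3 libraries a group) for each listed 20S and immunoproteasome subunit gene, SETD8 knockout beside control. Knockout bars are the taller in every gene, and PSMB1, PSMB4, PSMA7 and PSMB3 are the highest while PSMB10 is the lowest at 119 reads per kilobase in the knockout and 75.7 in the control.

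The 19S cap moved less evenly, with 12 of 17 listed genes higher, 3 lower and 2 not called, and a median log2 fold change of 0.28. Of its 6 ATPases, the ring that unfolds substrates and threads them into the core, 4 rose and 1 fell. PSMC3 (chr11:47418769-47426473, minus strand) had 4103, 3963 and 3699 normalized reads in the SETD8 knockout libraries, against 2655, 2496 and 2736 in the control libraries (log2 fold change 0.58, SE 0.06, limma-trend adjusted p = 5.37e-08). PSMC4 had 2012, 1948 and 1754 normalized reads in the SETD8 knockout libraries, against 1346, 1421 and 1361 in the control libraries (log2 fold change 0.47, SE 0.067, limma-trend adjusted p = 5.78e-06). PSMC2 had 2077, 2090.2 and 1871 normalized reads in the SETD8 knockout libraries, against 1791, 1588 and 1581 in the control libraries (log2 fold change 0.28, SE 0.068, limma-trend adjusted p = 0.00184). These ATPase genes showed no overlap between the groups. PSMC6 rose by log2 0.19, with values of 1748, 1717 and 1586 in the knockout, against 1339.7, 1518 and 1584 in the control, so that knockout 3 and control 3 nearly met. PSMC1 had 1305, 1287 and 1253 normalized reads in the SETD8 knockout libraries, against 1042, 1166 and 1204 in the control libraries, which did not pass the test (log2 fold change 0.17, SE 0.072, limma-trend adjusted p = 0.0635), and it has 13 annotated pseudogenes that could share its reads. PSMC5, on chromosome 17, fell by log2 0.17 with overlapping groups, at 2571, 2912 and 2658 in the knockout, against 2816, 3115 and 3239 in the control.

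Among the 11 non-ATPase genes of the cap 8 rose, 2 fell and PSMD12 was not called. PSMD1, a large scaffold of the base (chr2:231056864-231172827, plus strand), had 1956, 1958 and 1893 normalized reads in the SETD8 knockout libraries, against 1375, 1359 and 1351 in the control libraries (log2 fold change 0.51, SE 0.061, limma-trend adjusted p = 5.59e-07). PSMD2, the other large scaffold and the most highly counted proteasome gene (chr3:184298709-184309054, plus strand), had 7169, 7429 and 7045 normalized reads in the SETD8 knockout libraries, against 5538, 5649 and 5714 in the control libraries (log2 fold change 0.36, SE 0.053, limma-trend adjusted p = 9.33e-06). PSMD10, gankyrin, a chaperone of base assembly, had 1158, 1037 and 1002 normalized reads in the SETD8 knockout libraries, against 775, 855 and 805 in the control libraries (log2 fold change 0.39, SE 0.079, limma-trend adjusted p = 0.000322). None of these 3 genes overlapped between the groups. PSMD14, the cap's own deubiquitinating subunit, rose by log2 0.31, beside a neighbour median of 0.68. With that median subtracted it turned to -0.36 and was called lower, the one proteasome gene called lower in that setting. The median came from 13 genes, and its own error is left out of this call. PSMD8 rose by 0.31, PSMD13 by 0.30 and PSMD6 by 0.22. PSMD4, the ubiquitin receptor, rose by 0.18 with an adjusted p of 0.0376 in limma-trend.

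The lower non-ATPase genes were PSMD11 and PSMD5. PSMD11, a lid subunit (chr17:32444261-32483318, plus strand), had 1561, 1531 and 1415 normalized reads in the SETD8 knockout libraries, against 1906, 2029 and 1989 in the control libraries (log2 fold change -0.39, SE 0.064, limma-trend adjusted p = 2.75e-05), and all 3 knockout libraries lay below the control libraries. PSMD5, a chaperone of base assembly on chromosome 9, had 971, 950.3 and 903 normalized reads in the SETD8 knockout libraries, against 1065, 1083 and 1137 in the control libraries (log2 fold change -0.22, SE 0.072, limma-trend adjusted p = 0.0198). PSMD12, a lid subunit, had 1889, 1773 and 1587 normalized reads in the SETD8 knockout libraries, against 2109, 1828 and 1949 in the control libraries (log2 fold change -0.17, SE 0.072, limma-trend adjusted p = 0.0804), with overlapping groups. The surroundings of these genes were low as well, with neighbour medians of -0.58 for PSMD11, -0.69 for PSMD5, -0.67 for PSMC5 and -0.65 for PSMD12. With the neighbour median subtracted from the knockout libraries, PSMD11, PSMD5 and PSMC5 turned to log2 changes of 0.18, 0.48 and 0.50 and were called higher. Among genes that rose, PSMC2 lay in high surroundings (neighbour median 0.37) and was at -0.089 and not called after the subtraction. Several calls of the cap were lost when 1 library was left out. PSMC6 lost its call in 4 of the 6 left-out fits (log2 0.12 to 0.21) and PSMC5 in 4 (-0.16 to -0.13). PSMD4 lost its call in 3 (0.12 to 0.18), PSMD5 in 3 (-0.22 to -0.19) and PSMD6 in 1, without knockout 1 (0.17).

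All 3 listed activator genes and all 3 listed assembly chaperone genes rose, against 47.3% of all tested genes. PSME1 and PSME2 encode the paired subunits of the PA28 ring, an interferon-inducible activator of the core. PSME2 had 1129.8, 1139 and 955 normalized reads in the SETD8 knockout libraries, against 810.4, 809 and 856 in the control libraries (log2 fold change 0.38, SE 0.08, limma-trend adjusted p = 0.000611). PSME1, its neighbour on chromosome 14, had 1994, 1784 and 1723 normalized reads in the SETD8 knockout libraries, against 1374, 1487 and 1535 in the control libraries (log2 fold change 0.32, SE 0.07, limma-trend adjusted p = 0.000693). PSME3, which forms the nuclear activator ring, had 3362, 3488 and 3324 normalized reads in the SETD8 knockout libraries, against 2882, 3061 and 3035 in the control libraries (log2 fold change 0.18, SE 0.056, limma-trend adjusted p = 0.0135). The groups were apart in each gene, though in PSME3 by a small margin, and its call ended without knockout 2 or control 1 (log2 0.16 and 0.15). PSME1 and PSME2 had a neighbour median of 0.26, and PSME3 one of -0.53. With the neighbour and the gene length trend both removed, PSME1 was called lower, at -0.21. PSME2 was then at 0.067 and not called, and PSME3 was called higher, at 0.73.

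The PSMG genes encode chaperones that assemble the alpha ring. PSMG3 had 498, 403 and 298 normalized reads in the SETD8 knockout libraries, against 255, 278 and 295 in the control libraries (log2 fold change 0.50, SE 0.14, limma-trend adjusted p = 0.00791), with knockout 3 only just above control 3, and without knockout 1 its log2 fold change was 0.33 with a limma-trend adjusted p of 0.0901. PSMG4 had 596, 597 and 663 normalized reads in the SETD8 knockout libraries, against 476, 459.9 and 413 in the control libraries (log2 fold change 0.46, SE 0.095, limma-trend adjusted p = 0.000439). PSMG1 (chr21:39174769-39183851, minus strand) had 1099.6, 1117 and 968 normalized reads in the SETD8 knockout libraries, against 849, 757 and 783 in the control libraries (log2 fold change 0.41, SE 0.08, limma-trend adjusted p = 0.000217). Groups were clearly apart in PSMG4 and PSMG1. PSMG1 had a neighbour median of 0.49, and its log2 fold change was -0.075 and not called with that median subtracted, and -0.34 and called lower with the gene length trend removed as well. With both trends removed PSMG3 was at -0.18 and not called, and PSMG4 was at 0.97 and called higher.

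**Figure D3:**
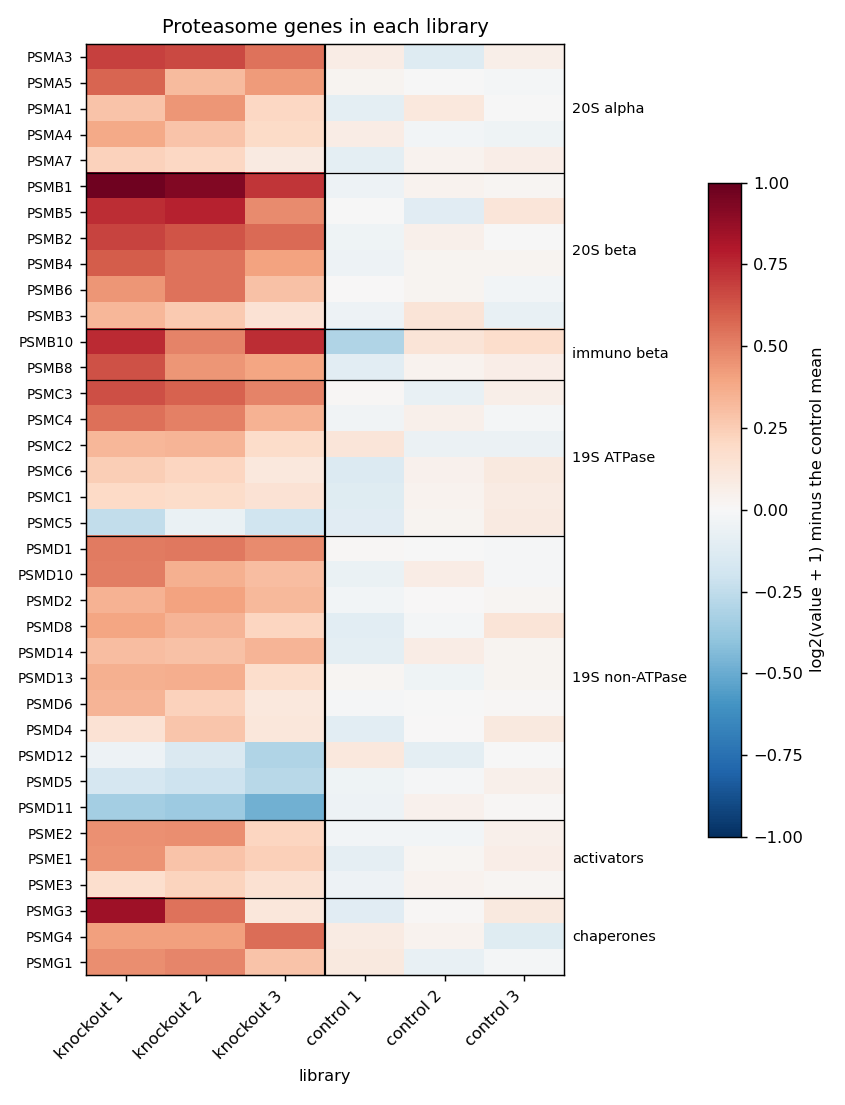
Heat map of log2(value + 1) minus the control mean for the 36 proteasome genes, one column per library, SETD8 knockout libraries left of control libraries. Knockout columns are positive for most genes, knockout 3 is the lowest of the 3 knockout columns in 28 of the 32 genes with a positive change, and PSMD11, PSMD5, PSMC5 and PSMD12 are negative on average.

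The knockout libraries did not stand equally high. Knockout 3, the deepest library, was the lowest of the 3 knockout libraries in 28 of the 32 proteasome genes with a positive change, or 87.5%, against 45.7% of the 3786 tested genes with a positive change. The part of depth in this was not tested. Without knockout 3 the proteasome had 31 higher members, and over all 6 left-out fits the count ran from 26 to 31.

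Promoter sequence was read for 31 of the 36 proteasome genes, in windows of 250 bases before the RefSeq start (GRCh38.p14). The letters TGACNNNGC, shared by sites of the CNC and MAF factors that include the proteasome regulators NFE2L1 and NFE2L3, occurred on either strand in 6 of 31 (19.4%), against 11.03% of all 27305 promoters of the table. The letters CCAAT, the NF-Y motif, occurred in 13 of 31 (41.9%), against 33.0% of all promoters. For E1 and E2 genes the counts were 3 of 21 for each motif, and for deubiquitinating enzyme genes 3 of 24 with TGACNNNGC and 5 of 24 with CCAAT. The following 4 windows are shown to set 3 genes that rose, a core protease, an ATPase and a chaperone, beside the lower PSMD11, each 5′ to 3′ on the gene's strand with matches in capitals. In all 4 genes the RefSeq start lies inside the gene bounds of the deposited table. A match describes letters in the window and shows no binding.
PSMB5, chr14:23035221-23035470, minus strand: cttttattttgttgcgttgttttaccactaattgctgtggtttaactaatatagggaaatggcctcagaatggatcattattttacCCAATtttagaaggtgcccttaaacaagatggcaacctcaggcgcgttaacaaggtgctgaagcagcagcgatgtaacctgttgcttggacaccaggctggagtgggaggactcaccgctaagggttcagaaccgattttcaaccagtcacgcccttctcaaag
PSMC3, chr11:47426440-47426689, minus strand: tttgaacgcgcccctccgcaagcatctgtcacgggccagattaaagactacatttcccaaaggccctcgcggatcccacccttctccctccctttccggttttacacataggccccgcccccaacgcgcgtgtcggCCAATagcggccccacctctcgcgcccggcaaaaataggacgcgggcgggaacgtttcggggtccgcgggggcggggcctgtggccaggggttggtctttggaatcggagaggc
PSMG1, chr21:39183452-39183701, minus strand: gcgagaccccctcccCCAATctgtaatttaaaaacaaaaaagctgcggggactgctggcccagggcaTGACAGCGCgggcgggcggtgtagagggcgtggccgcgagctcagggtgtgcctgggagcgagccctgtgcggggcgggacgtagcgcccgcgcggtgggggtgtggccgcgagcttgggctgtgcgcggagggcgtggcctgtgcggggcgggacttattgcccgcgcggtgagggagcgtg
PSMD11, chr17:32444260-32444509, plus strand: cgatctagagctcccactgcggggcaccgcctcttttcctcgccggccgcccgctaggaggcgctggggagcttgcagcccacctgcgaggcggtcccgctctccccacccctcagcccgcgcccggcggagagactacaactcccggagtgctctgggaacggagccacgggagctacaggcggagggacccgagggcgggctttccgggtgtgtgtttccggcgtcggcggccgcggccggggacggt
The window of PSMG1 held both motifs, those of PSMB5 and PSMC3 held CCAAT, and that of PSMD11 held neither. These 4 windows do not stand for the other proteasome genes. PSMD5, PSMD12 and PSMC5, which also had negative changes, each held a motif, TGACNNNGC in PSMD5 and PSMD12 and CCAAT in PSMC5. Genes that rose with neither motif included PSMB2, PSMB4, PSMC4, PSMD1 and PSMD2.

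The 28 listed E1 and E2 genes divided into 18 that rose and 10 that fell in the knockout, with a median log2 fold change of 0.30. Of all tested genes 47.3% were called higher and 46.7% lower. Groups did not overlap in any of the 28, against 95.4% of tested genes without overlap, and summed over them the level was 58422 ± 1575 normalized reads in the knockout and 53654 ± 813 in the control (SD, n = 3 each). Ubiquitin E2 genes were mostly higher, 14 of 19, with a median of 0.35, while 3 of the 4 genes for E2s of other modifiers and E2 variants were lower.

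Of 5 listed E1 genes, UBA1, UBA3 and UBA7 rose and 2 fell, UBA6 among them. UBA1, which charges most of the cell's ubiquitin (chrX:47190861-47215128, plus strand), had 8943, 9725 and 9680.0 normalized reads in the SETD8 knockout libraries, against 7053, 8224 and 8041 in the control libraries (log2 fold change 0.28, SE 0.062, limma-trend adjusted p = 0.000772). UBA6, the alternative E1 for ubiquitin that also charges FAT10, had 1630.1, 1721 and 1585 normalized reads in the SETD8 knockout libraries, against 1997, 1887 and 1769 in the control libraries (log2 fold change -0.19, SE 0.065, limma-trend adjusted p = 0.022). The genes for the 2 ubiquitin E1s thus moved in opposite directions, with values apart between groups in both. UBE2Z, the E2 that takes ubiquitin from UBA6 (chr17:48908369-48929056, plus strand), had 2389.9, 2464 and 2368 normalized reads in the SETD8 knockout libraries, against 3639, 3476 and 3608 in the control libraries (log2 fold change -0.57, SE 0.056, limma-trend adjusted p = 2.36e-08), the largest fall among the ubiquitin E2 genes. UBA6 lost its call without knockout 3, control 1 or control 2, at log2 -0.19 to -0.15.

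The NEDD8 pathway, which tags cullins and thereby switches on their ligases, had its listed genes higher. UBA3, the catalytic subunit of its E1, had 1817, 1747 and 1705 normalized reads in the SETD8 knockout libraries, against 1473, 1403 and 1421 in the control libraries (log2 fold change 0.29, SE 0.063, limma-trend adjusted p = 0.000635). UBE2M, its E2 (chr19:58555712-58558960, minus strand), had 2416, 2179.5 and 2370.0 normalized reads in the SETD8 knockout libraries, against 1888, 1712 and 1923 in the control libraries (log2 fold change 0.33, SE 0.065, limma-trend adjusted p = 0.000228). NAE1, the other E1 subunit, rose by log2 0.23, and NEDD8 itself, at 559 ± 76.1 in the knockout and 339 ± 30.2 in the control, rose by 0.71. After removal of both the neighbour and the gene length trend NEDD8 stayed higher at 0.43, UBA3 and UBE2M were at 0.082 and -0.08 without a call, and NAE1 turned to -0.21 (limma-trend adjusted p = 0.0202).

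In the other modifier pathways the listed enzymes did not all move one way. UBA7, the E1 for ISG15 (chr3:49805207-49813946, minus strand), had 380.4, 420.0 and 412 normalized reads in the SETD8 knockout libraries, against 215, 254 and 258 in the control libraries (log2 fold change 0.74, SE 0.12, limma-trend adjusted p = 2.24e-05). UBE2L6, the E2 for ISG15 (chr11:57551656-57568284, minus strand), had 740.0, 805 and 738 normalized reads in the SETD8 knockout libraries, against 935, 1040.3 and 1013 in the control libraries (log2 fold change -0.39, SE 0.078, limma-trend adjusted p = 0.000326). The first enzyme of this pathway was therefore higher and the second lower, each without overlap. Of genes for the SUMO modifiers, SUMO3 rose by log2 0.68, while SUMO2 fell by 0.35. The neighbour median was 0.41 for SUMO3 and -0.54 for SUMO2. With both trends removed SUMO3 was at 0.081 and SUMO2 at 0.062, neither called, so the opposite directions were not seen in that setting.

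UBE2V1, a variant without a catalytic cysteine that pairs with UBE2N to build signalling chains, had 37.5, 84.4 and 54.2 normalized reads in the SETD8 knockout libraries, against 116, 158 and 100.1 in the control libraries (log2 fold change -1.13, SE 0.26, limma-trend adjusted p = 0.00121). It showed the largest change among the 28 genes, yet it was thinly counted, shares exon bases with a readthrough gene and has 15 annotated pseudogenes, so its value is uncertain. UBE2N, its catalytic partner, rose at 2716, 2541 and 2326 in the knockout, against 1865, 1954 and 1796 in the control (log2 0.43).

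Among higher ubiquitin E2 genes, UBE2J1, an E2 of degradation at the endoplasmic reticulum (chr6:89326625-89352848, minus strand), had 3013, 2904 and 2790.2 normalized reads in the SETD8 knockout libraries, against 1942, 1912 and 2029.5 in the control libraries (log2 fold change 0.57, SE 0.059, limma-trend adjusted p = 6.26e-08). UBE2J2, its relative at the same membrane, had 1106, 1177 and 1063 normalized reads in the SETD8 knockout libraries, against 856, 784 and 761 in the control libraries (log2 fold change 0.48, SE 0.077, limma-trend adjusted p = 2.40e-05). UBE2E3 had 665, 572 and 560.3 normalized reads in the SETD8 knockout libraries, against 377, 453 and 466 in the control libraries (log2 fold change 0.47, SE 0.10, limma-trend adjusted p = 0.000855). All 3 had every knockout library above every control library. UBE2G1 and UBE2G2, also linked to degradation at that membrane, rose by log2 0.39 and 0.27. UBE2A and UBE2B, the E2s that act on histone H2B, rose by 0.44 and 0.31. UBE2K, which builds degradation chains and was the most highly counted ubiquitin E2, rose by 0.32 at 7028, 6583 and 6614 in the knockout, against 5524, 5026 and 5618 in the control. UBE2D1, UBE2Q2, UBE2L3 and UBE2Q1 rose by 0.44, 0.37, 0.35 and 0.24.

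The E2 genes of the anaphase promoting complex, the ligase that ends mitosis, moved apart. UBE2C, which starts its chains, had 1335, 1233 and 1033 normalized reads in the SETD8 knockout libraries, against 1479.7, 1504 and 1585 in the control libraries (log2 fold change -0.35, SE 0.08, limma-trend adjusted p = 0.0012). UBE2S, which extends them, had 3835, 3526 and 3172 normalized reads in the SETD8 knockout libraries, against 2632, 2604 and 2859.9 in the control libraries (log2 fold change 0.38, SE 0.067, limma-trend adjusted p = 8.09e-05). The groups were apart in both genes, and both have annotated pseudogenes, 4 for UBE2C and 2 for UBE2S. With the neighbour median subtracted UBE2C was at 0.18 and UBE2S at 0.048, neither called, so the opposite directions were not seen in that setting. Other lower E2 genes were UBE2O on chromosome 17, at 2194, 2156 and 2321 normalized reads in the SETD8 knockout libraries, against 3119.9, 3241 and 3402 in the control libraries (log2 fold change -0.55, SE 0.059, limma-trend adjusted p = 9.78e-08), UBE2H at log2 -0.30 and UBE2R2, an E2 of cullin ligases, at -0.24.

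With the neighbour median subtracted, 7 of the 28 E1 and E2 genes were higher and 6 lower, against 23 higher and 1 lower of the 36 proteasome genes. The E1 and E2 median was then 0.034, so the preponderance of higher members was not seen under that setting. UBE2O and UBE2Z were no longer called, at -0.036 and 0.019.

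The 29 deubiquitinating enzyme genes leaned the other way, with 18 lower, 8 higher and 3 not called, and a median log2 fold change of -0.25. Of all tested genes 46.7% were called lower and 47.3% higher. Groups did not overlap in 26 of 29, against 95.4% of tested genes. In 17 the knockout lay wholly below the control, against 47.4% of tested genes, and in 9 wholly above, against 48.0%. Their summed level was 36834 ± 505 normalized reads in the knockout and 41309 ± 238 in the control (SD, n = 3 each), so the 3 knockout sums lay below the control sums while those of the proteasome lay above. Of the families named, 23 of 49 USP genes, 5 of 8 OTUD genes, 1 of 2 JOSD genes and 0 of 3 UCHL genes were listed.

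**Figure D4:**
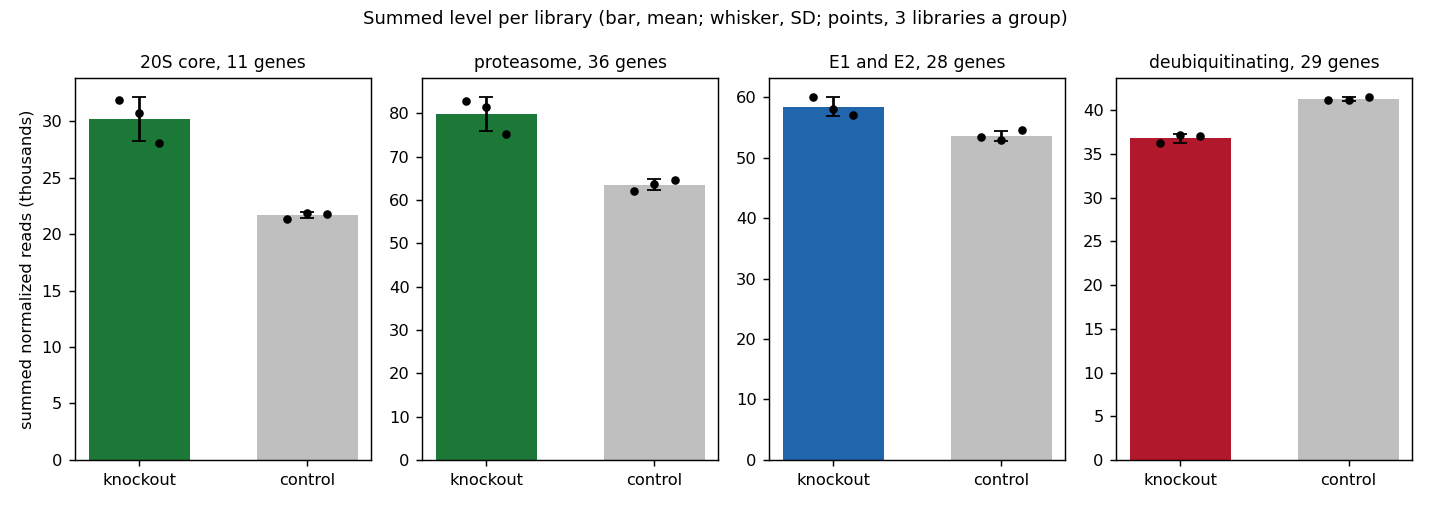
Summed normalized reads (axis in units of 1000) of the listed members of each group of genes in each library, with bars for the mean and whiskers for the SD (n = 3 a group), SETD8 knockout left of control. The 20S core and the whole proteasome stand higher in the knockout (30246 against 21686 and 79842 against 63532 reads), and the deubiquitinating enzymes stand lower (36834 against 41309 reads).

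USP genes encode the largest family of cysteine proteases that cleave ubiquitin, and 14 of the 23 listed fell, against 46.7% of all tested genes. USP53 (chr4:119212587-119295517, plus strand) had 259.5, 288 and 273 normalized reads in the SETD8 knockout libraries, against 645, 557 and 559 in the control libraries (log2 fold change -1.10, SE 0.11, limma-trend adjusted p = 1.75e-08), with every knockout library below every control library. USP32 (chr17:60179094-60422470, minus strand) had 2227, 2442 and 2397 normalized reads in the SETD8 knockout libraries, against 3866, 3976 and 3873 in the control libraries (log2 fold change -0.73, SE 0.057, limma-trend adjusted p = 7.49e-10). USP28, which stabilises MYC and takes part in the p53 response (chr11:113797874-113875570, minus strand), had 797, 698 and 644 normalized reads in the SETD8 knockout libraries, against 1094, 1182 and 1152 in the control libraries (log2 fold change -0.68, SE 0.083, limma-trend adjusted p = 5.72e-07). In these 3 genes the highest knockout library lay well below the lowest control library. USP27X, on the X chromosome, had 44.8, 44.7 and 23.3 normalized reads in the SETD8 knockout libraries, against 67.4, 79.7 and 85.2 in the control libraries (log2 fold change -1.07, SE 0.28, limma-trend adjusted p = 0.00367), the lowest mean of any member.

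Further falls were -0.62 for USP37, an enzyme of the cell cycle, -0.56 for USP36, a nucleolar enzyme, -0.54 for USP51, an enzyme of histone H2A, -0.46 for USP7, which acts on MDM2 and p53, -0.43 for USP2 and -0.29 for USP49. USP22, the ubiquitin protease of the SAGA coactivator, and USP15 each fell by 0.25, USP39, a splicing factor, by 0.22 and USP34 by 0.21. USP11, USP19 and USP31 did not pass the test, at log2 -0.18, 0.15 and -0.33.

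USP genes that rose included USP14, the deubiquitinating enzyme docked on the 19S cap, at 2990.3, 2707 and 2569.9 normalized reads in the SETD8 knockout libraries, against 2411, 2160.3 and 2295 in the control libraries (log2 fold change 0.27, SE 0.065, limma-trend adjusted p = 0.00224). USP16, which acts on histone H2A (chr21:29024629-29054488, plus strand), had 966, 894 and 868 normalized reads in the SETD8 knockout libraries, against 698, 708 and 729 in the control libraries (log2 fold change 0.35, SE 0.078, limma-trend adjusted p = 0.000924). USP24 had 2395, 2651 and 2693 normalized reads in the SETD8 knockout libraries, against 2181, 1982 and 2114 in the control libraries (log2 fold change 0.30, SE 0.063, limma-trend adjusted p = 0.000536). The groups were apart in all 3 genes. USP25 had 1219, 1183 and 1194 normalized reads in the SETD8 knockout libraries, against 1065, 895 and 1036 in the control libraries (log2 fold change 0.27, SE 0.076, limma-trend adjusted p = 0.00712), and its adjusted p in limma-trend was 0.0781 without control 2. USP5, which takes apart free chains, rose by log2 0.26, and USP3 by 0.25 with a limma-trend adjusted p of 0.0381.

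Of the OTUD genes, which encode a separate fold of cysteine protease, 2 rose and 3 fell. OTUD6B had 918, 915 and 859 normalized reads in the SETD8 knockout libraries, against 655, 659 and 610.4 in the control libraries (log2 fold change 0.48, SE 0.08, limma-trend adjusted p = 3.30e-05). OTUD4 (chr4:145110838-145180161, minus strand) had 1742, 1694 and 1765 normalized reads in the SETD8 knockout libraries, against 1336, 1345 and 1345 in the control libraries (log2 fold change 0.37, SE 0.062, limma-trend adjusted p = 4.57e-05), although its neighbour median was -0.69. OTUD1 had 180.3, 194 and 187 normalized reads in the SETD8 knockout libraries, against 242, 297 and 324 in the control libraries (log2 fold change -0.61, SE 0.14, limma-trend adjusted p = 0.00106). OTUD3 had 404, 411 and 413 normalized reads in the SETD8 knockout libraries, against 586, 565 and 488 in the control libraries (log2 fold change -0.41, SE 0.099, limma-trend adjusted p = 0.00198), and like OTUD1 it had every knockout library below every control library. OTUD5 fell by log2 0.20 with overlapping groups. JOSD1, of the Machado-Joseph family, had 1163, 1116 and 1197 normalized reads in the SETD8 knockout libraries, against 1312, 1449 and 1406 in the control libraries (log2 fold change -0.26, SE 0.069, limma-trend adjusted p = 0.00402), lower in every knockout library. OTUD5 and USP3 each lost their call in 4 of the 6 left-out fits (log2 -0.18 to -0.16 and 0.17 to 0.27), and USP34 in 3 (-0.20 to -0.12).

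With the neighbour median subtracted, 5 deubiquitinating enzyme genes were higher and 10 lower, and the median was -0.19. USP53 and USP32 were then at -0.26 and -0.14 and not called, and USP16 and USP25 changed sign to -0.14 and -0.16, not called. USP7 and USP34, lower before, were called higher, at 0.21 and 0.28, and with both trends removed were at 0.25 and 0.45. USP28, OTUD1, OTUD3 and JOSD1 were still called lower with both trends removed, at log2 -0.50, -0.84, -0.48 and -0.63.

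Of the members outside the 3 functions, PSMC3IP encodes HOP2, a partner of meiotic recombination, and had 227, 241 and 213 normalized reads in the SETD8 knockout libraries, against 357, 408 and 334 in the control libraries (log2 fold change -0.68, SE 0.12, limma-trend adjusted p = 9.22e-05). Counting PSMC3IP with the proteasome would make its lower members 4.

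Location and length were set beside these directions. All 20 proteasome genes with a positive neighbour median had a positive log2 fold change, against 63.3% of the 4305 tested genes so placed. Of the 15 with a negative neighbour median, 11 (73.3%) had a positive log2 fold change, against 33.0% of 3154 tested genes. Deubiquitinating enzyme genes were positive in 7 of 15 (46.7%) and 2 of 14 (14.3%) of the same classes, and E1 and E2 genes in 15 of 20 (75.0%) and 3 of 8 (37.5%). On chromosome 17 the 6 proteasome genes had a median log2 fold change of 0.0071 (3 higher, 2 lower). All 548 tested genes of the chromosome had a median of -0.48 (122 higher, 404 lower). Not all 6 lay in low surroundings: PSMB6, among the 3 higher, had a neighbour median of 0.40. With that median subtracted PSMB6 was at 0.031 and not called. On the other chromosomes 28 of 30 proteasome genes rose and 1 fell, with a median of 0.38.

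Proteasome genes also had short deposited gene lengths, with a median of 3424 bases. The median was 6767 for deubiquitinating enzymes, 4542 for E1 and E2 genes and 5086 over all tested genes. This length is not the span between the gene bounds: PSMD1, at chr2:231056864-231172827, has a deposited length of 5187 bases. With a smooth trend on length removed from the knockout libraries, the medians were 0.30 for the proteasome, 0.26 for E1 and E2 genes and -0.17 for deubiquitinating enzymes. With both trends removed they were 0.21, 0.0037 and -0.17, and 26 of 36 proteasome genes (72.2%) were positive, against 49.9% of all tested genes. In that setting PSMA3, PSMA5, PSMB1, PSMB2, PSMD2 and PSMD10 were still higher, at log2 0.59, 0.43, 0.20, 0.45, 0.63 and 0.59. PSMB5 and PSMC3 were at 0.16 and 0.0087 and no longer called.

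**Figure D5:**
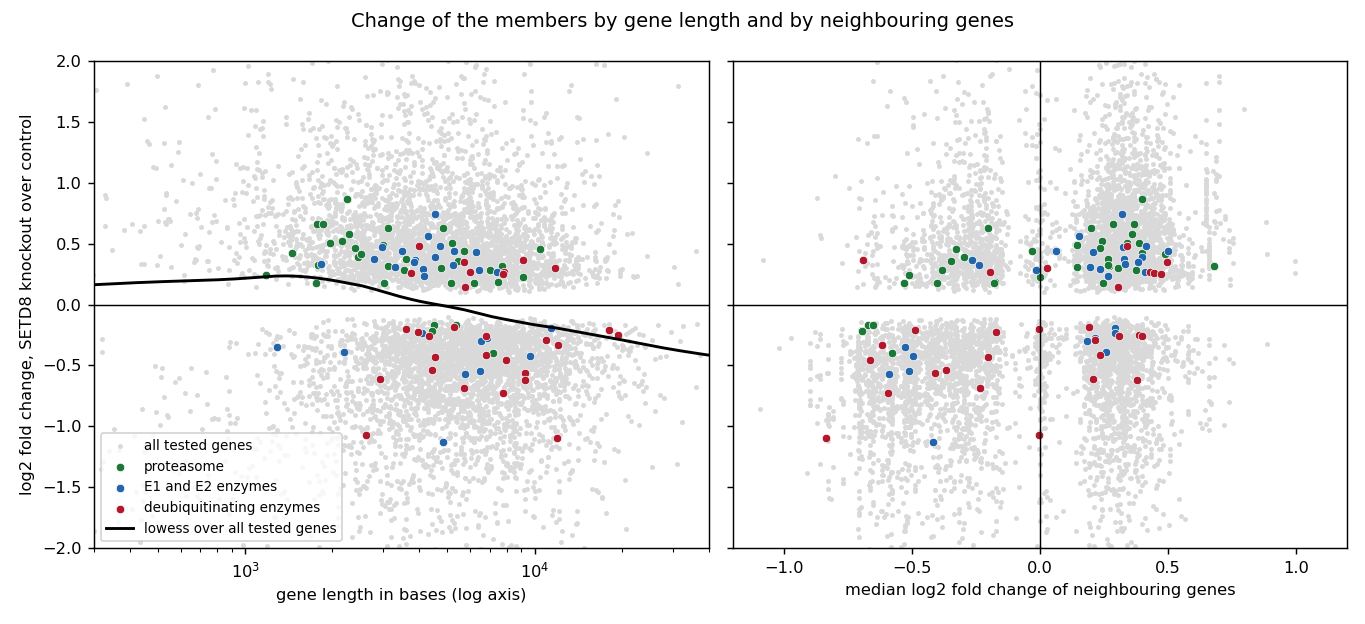
Log2 fold change of each tested gene (grey) and each member (coloured by function) against its neighbour median in the right panel and against its deposited gene length, not its genomic span, on a log axis in the left panel. The vertical axis runs from -2 to 2, so that tested genes beyond it are not drawn. Proteasome genes lie above 0 at most positions along both axes, including 11 of the 15 with a negative neighbour median, and the curve in the left panel is the smooth trend over all tested genes.

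Genes of the same pathways outside the family names were read from a list of 86, of which 47 were in the table and 46 were tested. Of these 22 rose, 23 fell and 1 was not called, with a median of -0.022. UBB, a gene for ubiquitin itself, rose, at 5804 ± 419 in the knockout and 4358 ± 254 in the control (SD, n = 3 each, log2 0.41). Among partners of the proteasome, POMP, the maturation factor of the core, rose by log2 0.49 and SEM1, a lid subunit, by 0.63. VCP, the unfolding ATPase upstream of the proteasome, rose by 0.51. Of 13 tested partners of the proteasome 5 rose, 7 fell and 1 was not called. The lower ones included RAD23B at -0.72 and UBQLN1 at -0.57, shuttle factors, the ubiquitin receptor ADRM1 at -0.39 and ECPAS, which binds both cap and core, at -0.78, while the shuttle factor UBQLN4 rose by 0.27. ECPAS, RAD23B and UBQLN1 are on chromosome 9, with neighbour medians of -0.78, -0.65 and -0.68.

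NFE2L3, a relative of the proteasome activator NFE2L1, had 859, 873 and 886 normalized reads in the SETD8 knockout libraries, against 152, 119 and 161 in the control libraries (log2 fold change 2.60, SE 0.12, limma-trend adjusted p = 9.94e-14), the largest rise in the list. NFE2L1 itself, which drives proteasome genes when the proteasome is impaired, fell, at 6044 ± 297 in the knockout and 8741 ± 409 in the control (log2 -0.53), beside a neighbour median of -0.69, and NGLY1, the enzyme that activates it, fell by log2 0.27. Of 14 tested deubiquitinating and deconjugating enzymes of other families 11 fell and 3 rose, against 46.7% lower and 47.3% higher of all tested genes. STAMBP, a metalloprotease at endosomes, fell at 501 ± 41.8 in the knockout and 954 ± 11.5 in the control (log2 -0.93), and SENP7 and ZRANB1 fell by log2 0.74 and 0.90. TNFAIP3, the brake on NF-kB, rose at 6212 ± 317 in the knockout and 3363 ± 148 in the control (log2 0.88), as did BAP1 (log2 0.42), which acts on histone H2A. YOD1 was not tested, at 0 in every knockout library and 14.3, 5.83 and 0.991 in the control libraries. Of the COP9 signalosome, which removes NEDD8 from cullins, 4 of 5 tested genes rose, against 47.3% of all tested genes. COPS4 fell by log2 0.26. With both the neighbour and the gene length trend removed, COPS5 was still called higher, at 0.46. COPS7A, COPS7B, COPS9 and COPS4 were then at 0.14, -0.17, -0.22 and -0.084 and not called.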

How the data were processed

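Polyadenylated RNA of 6 Kasumi-1 libraries was sequenced with a directional kit, per the labels' protocols. The submitters' processing notes name hg38 as the build, and HISAT2 (an aligner) and DESeq2 as tools. The sources used here give no versions, no read counter and no strand setting. The table holds, per the file headers, a normalized read count for each gene and library, a signal that the authors made by dividing read counts by a size factor (0.959 to 1.07 as recovered). Every value was a whole number of reads within 0.001 (100%), although in knockout 2 and control 3 a read is worth 0.993 and 0.991, too near 1 to tell from rounding by code. The authors deposited, per gene, their log2 fold change with its p-value, also in a form adjusted over 19860 genes. The coordinates of 7974 of 7983 genes were those of GENCODE release 29.

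Genes with a mean of at least 10 were tested, 7516 in all, with 467 left out. The test, two-sided and without a block, was limma-trend on log2(value + 1) in limma 3.58.1 under R 4.3.3, adjusted by Benjamini-Hochberg over 19860 genes, at a threshold of 0.05. Since the table holds selected genes, the spread that limma pools comes from selected genes. The test was checked on simulated data. The members and the lists were chosen with earlier results of these data known. Per role, the text gives values for up to 3 higher and 3 lower members with the largest change among those averaging at least 100 without overlap, and for each change of at least 1 on the log2 scale. A few genes these rules would name are not reported here. Members given beyond these, and genes of the pathway list outside the family names, were chosen after their values were seen. Levels per kilobase divide by the deposited gene length. Depth, in the listed genes only, was 10966349 to 12557974 reads. Same-numbered libraries deviated together with correlations of 0.0086, -0.0033 and -0.050, so the numbers were not taken as pairs. Alternatives were TMM and upper-quartile scaling, edgeR 4.0.16 and DESeq2 1.42.0 on recovered reads, no filter or a mean of at least 50, pseudocounts of 0.5 and 5, a replicate block, each library left out, adjustment over tested genes, the authors' calls, and subtraction from the knockout libraries of the median change of tested genes within 5 Mb (at least 5 genes), of a lowess (span 0.5) on gene length, or of both. PSMC3IP counted with the proteasome was added after seeing the data. Promoter windows came from RefSeq (GRCh38.p14), with 77 members matched.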

Additional observations from a re-analysis of the deposited data

How the results depend on the processing

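The direction of each function's median was unchanged under TMM and upper-quartile scaling, edgeR, DESeq2, both other filters, both other pseudocounts, the authors' deposited calls and each left-out library. Of 90 called members, edgeR lost 0, TMM 2, DESeq2 3, upper-quartile scaling 5, the authors' calls 5 and single left-out libraries 4 to 8. Removal of the neighbour trend ended 41 calls and changed the sign of 22 members, removal of the length trend 13 and 3, and removal of both 41 and 28. Under both neighbour removals PSMD14 (-0.36 and -0.39) was called lower, and PSMC5 (0.50 and 0.44), USP7 (0.21 and 0.25) and USP34 (0.28 and 0.45) were called higher. Under the replicate block no call was lost: 31 proteasome members were higher and 4 lower, 18 and 10 E1 and E2 members, and 8 and 19 deubiquitinating members, with medians of 0.34, 0.30 and -0.25, but the libraries share only a number. Over left-out libraries, the proteasome had 26 to 31 higher and 1 to 3 lower members (median 0.33 to 0.37), E1 and E2 18 and 8 to 10 (0.28 to 0.32) and deubiquitinating enzymes 6 to 8 and 16 to 19 (-0.29 to -0.24). Scaling moved medians of E1 and E2 to 0.25 (upper-quartile) and of deubiquitinating enzymes to -0.27 (TMM), -0.31 (upper-quartile) and -0.27 (DESeq2). With the trend of neighbouring genes removed, proteasome members lower were 1, E1 and E2 had 7 higher and 6 lower (median 0.034), and deubiquitinating enzymes 5 and 10 (-0.19). With the gene length trend removed the medians were 0.26 for E1 and E2 and -0.17 for deubiquitinating enzymes. With both removed, 19 proteasome members were higher (median 0.21), 7 E1 and E2 members higher and 5 lower (0.0037), and 11 deubiquitinating members lower (-0.17). Neighbour removal turned PSMC2 to -0.089, PSMD11 to 0.18, PSMD5 to 0.48, PSMG1 to -0.075, UBE2Z to 0.019, UBE2C to 0.18, USP16 to -0.14 and USP25 to -0.16. Removal of both turned PSMA1 to -0.049, PSMC2 to -0.11, PSMD11 to 0.21, PSMD5 to 0.37, PSME1 to -0.21, PSMG3 to -0.18, PSMG1 to -0.34, UBE2E3 to -0.18, UBE2Z to 0.095, UBE2M to -0.080 and USP16 to -0.17. Of these, PSMD11 and PSMD5 were called higher, PSME1 and PSMG1 were called lower, and the others were not called. Whether the trends are technical was not tested, and the neighbour medians were taken over selected genes only. Each trend was subtracted as a fixed number, so calls after its removal leave out the error of the trend itself. Members that lost their call in 3 or more left-out fits all had changes under 0.25 in size on the log2 scale.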
